A study of Mus musculus with 3 samples.

Results

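Tlr4, Cd14, Ly96, Lbp, Myd88, Ticam1, Ticam2, Irak3 and Tnfaip3, the genes through which mouse cells recognise lipopolysaccharide (LPS) and limit the response to it, were examined in the kidney cells of FA-treated WT and Aoah-/- mice. They were listed by name, 9 of the 27998 genes in the count tables, because AOAH inactivates LPS, so that it matters which kidney cells carry the means to sense it. LPS is handed by the serum carrier LBP (Lbp) to CD14 (Cd14), which passes it to MD-2 (Ly96) on the receptor TLR4 (Tlr4). The adaptors MyD88 (Myd88), TRIF (Ticam1) and TRAM (Ticam2) carry the signal to NF-kB and interferon genes, and IRAK-M (Irak3) and A20 (Tnfaip3) dampen it. Myeloid cells are known to carry CD14 and TLR4 at high level, while the liver is the main source of circulating LBP.

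The knockout group comprised 2 mice, numbered 2 and 3, and the WT group 1 mouse, numbered 3. All were given folic acid (FA), a nephrotoxic dose of which injures tubules and leads to fibrosis, and their kidneys were collected on day 14. The labels give an age of 6 to 8 weeks for each mouse. The Aoah gene was deleted in every cell of the body, the allele had been backcrossed to C57/BL6J mice, and the WT mouse was a littermate control. No library came from a kidney without FA, so every difference below is between FA-treated kidneys. With 1 WT mouse the spread among WT mice is unknown, so no test across mice was run and no p-value is given.

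Each library held the cells of 1 mouse, profiled by droplet scRNA-seq, in which a unique molecular identifier (UMI) marks each captured RNA molecule near its 3' end. The libraries held 167222984, 161015021 and 158551992 UMIs, and 21368, 19692 and 18202 cells were kept. These and all later triplets of values list knockout mouse 2 first, then knockout mouse 3, then WT. The smallest barcodes held 500, 1672 and 500 UMIs, and pairs of libraries shared 171 to 176 barcodes. Clustering without the 9 genes gave 35 clusters, of which 29 were named from marker genes into 20 classes, covering 97.6% of 59262 cells. Levels are UMIs of a gene per 1000000 UMIs of that class and library (CPM), with exact Poisson 95% intervals in brackets where given, which cover counting error only. The targeted gene was checked first: Aoah stood at 6.06, 5.68 and 15.3 CPM over all barcodes and at 4.10, 4.30 and 19.4 CPM in macrophage-like cells. The Aoah-/- libraries were thus lower but not at 0, and which part of the transcript the allele lacks is not given in the sources used here.

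Genes were placed on GRCm38 by their Ensembl identifiers with the GENCODE M21 annotation. Tlr4 lies on chromosome 4 at 66827584 to 66930284, Ly96 on chromosome 1 at 16688051 to 16709611 and Lbp on chromosome 2 at 158306493 to 158332852. Myd88 lies on chromosome 9 at 119335934 to 119341411 and Ticam1 on chromosome 17 at 56269319 to 56276786. Irak3 and Tnfaip3 lie on chromosome 10, at 120141648 to 120202130 and at 19000910 to 19015657. Exons of Ticam2 overlap those of Tmed7 on the same strand, so that reads of these genes can be split between them. Exons of Myd88 and Irak3 overlap Acaa1a and Tmbim4 on the opposite strand. UMI levels count molecules and were not divided by gene length, so levels are compared between classes and libraries and not between genes.

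Promoters, as windows of 300 bases around a RefSeq start, were held for 4 of the 9 genes (Myd88, Ticam1, Irak3 and Tnfaip3) in 6 entries of a RefSeq table on GRCm38.p6. The NF-kB motif GGNNTTTCC, searched on both strands, was found in 2 of these 6 promoters and in 5.82% of the 32851 promoters of the table. The first is that of Tnfaip3, the inhibitor that was higher in both Aoah-/- libraries, at chr10:19015361-19015660 on the minus strand, and the second is that of the adaptor gene Myd88 at chr9:119339969-119340268 on the minus strand. They are shown 5' to 3' with the motif matches in capitals, which begin at bases 227 and 239 of the Tnfaip3 promoter and at base 255 of the Myd88 promoter.
Tnfaip3: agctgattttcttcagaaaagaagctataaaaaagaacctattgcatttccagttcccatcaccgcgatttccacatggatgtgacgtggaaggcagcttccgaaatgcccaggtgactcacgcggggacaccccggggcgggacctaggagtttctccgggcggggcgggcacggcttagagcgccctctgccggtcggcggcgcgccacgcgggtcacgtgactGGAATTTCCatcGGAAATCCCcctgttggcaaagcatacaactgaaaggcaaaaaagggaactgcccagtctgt
Myd88: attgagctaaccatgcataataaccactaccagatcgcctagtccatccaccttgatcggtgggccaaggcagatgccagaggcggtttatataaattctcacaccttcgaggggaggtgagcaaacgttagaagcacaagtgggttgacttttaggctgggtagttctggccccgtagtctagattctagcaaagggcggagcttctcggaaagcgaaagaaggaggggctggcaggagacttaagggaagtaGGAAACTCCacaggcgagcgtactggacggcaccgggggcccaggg
The other Tnfaip3 promoter, both Irak3 promoters and the Ticam1 promoter held no match to these letters. A match describes the sequence and was not measured as a site of binding.

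Over whole libraries, the LPS co-receptor Cd14, the receptor Tlr4 and the inhibitor Tnfaip3 were higher in both Aoah-/- mice, while Ly96 and Ticam1 lay close to the WT level. Whole libraries, and shares of UMIs, refer here and below to the kept cells. Cd14 stood at 202, 134 and 75.8 CPM (199 to 204, 132 to 136 and 74.3 to 77.3), which is 2.66-fold and 1.76-fold of the WT level. Tlr4 was scarce throughout, at 4.70, 3.83 and 2.49 CPM (4.34 to 5.08, 3.50 to 4.18 and 2.22 to 2.78), or 1.89-fold and 1.54-fold. Tnfaip3 stood at 128, 106 and 60.2 CPM, or 2.13-fold and 1.77-fold. For each of these genes the WT library was the lowest and its interval did not meet those of the Aoah-/- libraries. Ly96, which codes for MD-2, was at 16.5, 14.3 and 15.3 CPM, and Ticam1 was at 10.9, 10.6 and 10.6 CPM, with WT inside or beside the Aoah-/- range. Myd88 was at 20.6, 18.8 and 14.5 CPM and Ticam2 at 1.85, 1.37 and 0.947 CPM, both higher in each Aoah-/- library. Myd88 was short of 1.5-fold in both of them and Ticam2 in mouse 3. The Aoah-/- libraries disagreed over Lbp (10.4, 5.40 and 9.13 CPM) and Irak3 (6.29, 4.50 and 4.51 CPM), with mouse 2 above WT and mouse 3 at or below it.

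A gene was counted as higher or lower where both Aoah-/- libraries lay at least 1.5-fold on the same side of WT and the 3 libraries together held at least 30 UMIs of it. By this count 3 of the 9 genes (Tlr4, Cd14 and Tnfaip3) were higher and 0 were lower over whole libraries, where 9.36% of all 16919 genes so tested were higher and 5.47% were lower. Their log2 ratios of the Aoah-/- mean over WT, with the SD between the Aoah-/- mice, were 0.78 ± 0.21 for Tlr4, 1.15 ± 0.42 for Cd14 and 0.96 ± 0.19 for Tnfaip3. The median log2 ratio, here and below with 1 CPM added to both levels, was 0.42 over the 9 genes and 0.06 over all genes tested. At 2-fold the number of the 9 genes counted as higher was 0.

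The libraries differed in their cell make-up, and these whole-library differences moved with it. Macrophage-, peritoneal macrophage-, monocyte- and granulocyte-like cells together gave 13.8%, 10.9% and 5.95% of the UMIs of kept cells. The same 4 classes held 87.1%, 78.1% and 76.5% of the Cd14 UMIs and 61.1%, 48.5% and 35.5% of the Tlr4 UMIs. When each class was given its WT level and weighted by the share of UMIs it had in each Aoah-/- library, Cd14 came to 184 and 127 CPM, or 2.43-fold and 1.67-fold of WT. The same calculation gave 1.65-fold and 1.52-fold for Tlr4 and 1.52-fold and 1.56-fold for Tnfaip3. The measured folds were 2.66 and 1.76 for Cd14, 1.89 and 1.54 for Tlr4 and 2.13 and 1.77 for Tnfaip3. The part of cell make-up in these differences was not tested. How far the shares reflect the kidney rather than its digestion and the capture of cells was not tested.

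**Figure D1:**
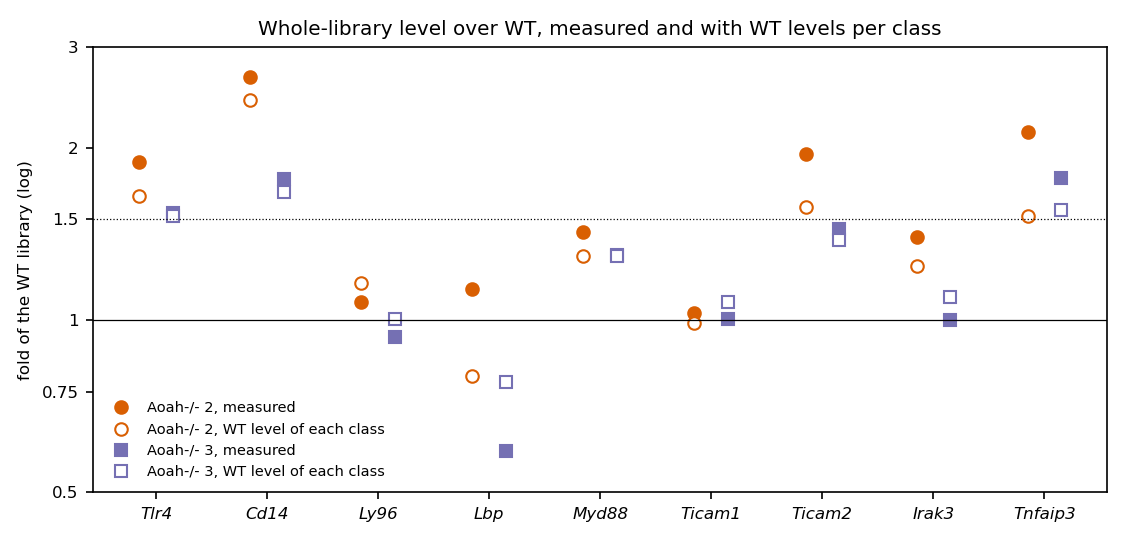
Whole-library level of the 9 genes as fold of the WT library on a log axis, with circles for Aoah-/- mouse 2 and squares for Aoah-/- mouse 3. Filled symbols are measured and open symbols use the WT level of each class with the UMI shares of that library. The dotted line marks 1.5-fold, and Cd14 of mouse 2 reads 2.66-fold measured and 2.43-fold with WT levels.

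Much of this make-up in Aoah-/- mouse 2 came from peritoneal macrophage-like cells, named for Prg4, Alox15 and Serpinb2, of which there were 1402, 28 and 78. They held 51.9% of the Cd14 UMIs and 33.9% of the Tlr4 UMIs of Aoah-/- mouse 2. Without them the log2 ratio over whole libraries was 0.79 ± 0.25 for Cd14, 0.58 ± 0.14 for Tlr4 and 0.75 ± 0.13 for Tnfaip3. Cd14 and Tnfaip3 were then still counted as higher, Tlr4 was not, and Lbp was counted as lower with a log2 ratio of -0.81 ± 0.10. Fibroblast-like cells, 33, 177 and 364 in number, held 17, 34 and 701 of the 1367, 703 and 1138 Lbp UMIs of kept cells. The part of this class in the Lbp count was not tested.

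Lbp, the gene of the serum carrier, was found in few classes: fibroblast-, peritoneal macrophage-, endothelial- and injured tubule-like cells. The first of these gave 82.3, 39.1 and 253 CPM (48.0 to 132, 27.1 to 54.6 and 234 to 272) from 33, 177 and 364 cells. Peritoneal macrophage-like cells stood at 85.5, 57.8 and 48.0 CPM and endothelial-like cells at 34.3, 29.0 and 35.9 CPM, with overlapping intervals between some libraries. Injured tubule-like cells, which carry Lcn2, Clu and Krt18 or Vcam1, C3 and Sox9, stood at 37.7, 30.5 and 27.4 CPM. In the other 16 classes Lbp did not pass 5.02 CPM in any library, and in PTEC-like cells it stood at 0.350, 0.205 and 0.205 CPM.

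Within endothelial-like cells Lbp was uneven. In the cluster led by Fabp4, Plvap and Flt1 it stood at 92.4, 56.6 and 92.5 CPM. In the cluster led by Tm4sf1, Ptprb and Cldn5 it was at 1.58, 5.71 and 3.41 CPM. After thinning each cell to 1000 UMIs, 3.38%, 3.54% and 2.06% of endothelial-like cells held a Lbp UMI, against 0.153%, 0% and 0.0833% of T lymphocyte-like cells, a class not known to make LBP. The median depth of these classes was 3240.5, 3936 and 3329 UMIs and 2515, 3034 and 2951 UMIs, and without thinning 8.20%, 10.2% and 5.78% against 0.191%, 0.241% and 0.393% of the cells held a UMI.

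In fibroblast-like cells the WT library was above both Aoah-/- libraries for several of the genes. Lbp was 0.326-fold and 0.155-fold of the WT level, Irak3 stood at 14.5, 9.19 and 72.8 CPM, and Tlr4 was at 9.68, 3.45 and 18.0 CPM. Of the 8 of 9 genes with enough UMIs, 3 (Lbp, Irak3 and Tlr4) were counted as lower there and 0 as higher, where 13% of all 9383 genes tested were lower and 9.95% were higher. The Aoah-/- libraries held 17 and 34 UMIs of Lbp, 3 and 8 of Irak3 and 2 and 3 of Tlr4, against 701, 202 and 50 in WT. A neighbouring cluster led by Dcn and Upk3b, left unnamed, held 150 WT cells of its 151 cells.

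Cd14 was a gene of the myeloid classes in all 3 libraries. Peritoneal macrophage-like cells stood at 1535, 1328 and 1490 CPM, granulocyte-like cells at 1289, 1319 and 1033 CPM, and macrophage-like cells at 1105, 989.5 and 1101 CPM. Monocyte-like cells followed at 551, 560.3 and 399 CPM and dendritic-like cells at 425, 397 and 490 CPM. The ranges of peritoneal macrophage- and granulocyte-like cells did not overlap, but only by 1328 against 1319 CPM in mouse 3. The former value rests on 184 UMIs from 28 cells, and its interval of 1143 to 1535 CPM holds the latter. Those of granulocyte- and macrophage-like cells overlapped, as did those of monocyte- and dendritic-like cells. Pericyte-like cells, at 187.9, 84.3 and 65.4 CPM on 36, 53 and 7 UMIs, came next, from 52, 144 and 22 cells. In them the macrophage genes C1qa, C1qb, C1qc and Lyz2 summed to 2228, 910 and 149 CPM. The part of macrophage RNA in their Cd14 level was not tested. Injured tubule-like cells stood at 74.1, 65.7 and 50.1 CPM, and urothelial-like cells at 45.6, 47.3 and 39.8 CPM.

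Macrophage-like cells, the class with the most Cd14 UMIs in Aoah-/- mouse 3 and WT, had close Cd14 levels in the 3 libraries. The log2 ratio was -0.07 ± 0.11, and WT lay inside the range of the Aoah-/- libraries. The class joined a cluster of shallow cells and a cluster of usual depth: the shallow cluster held 843, 138 and 1082 of its cells and the other 815, 1583 and 620. Most macrophage-like cells of WT and of Aoah-/- mouse 2 thus lay in the shallow cluster, and most of Aoah-/- mouse 3 in the other. The shallow cluster had a median depth of 709 UMIs in Aoah-/- mouse 2 and 716.5 UMIs in WT. No barcode of Aoah-/- mouse 3 held fewer than 1672 UMIs, so cells that shallow are absent from its library. The part of this unequal mix in the class-level ratio was not tested. In the deeper cluster alone Cd14 stood at 1277, 1030.3 and 1398 CPM, and in the shallow cluster at 106, 87.5 and 112 CPM. WT was the highest in each.

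Tlr4 was highest in granulocyte-like cells, at 58.4, 60.1 and 37.0 CPM (47.1 to 71.5, 49.2 to 72.7 and 22.0 to 58.6). Both Aoah-/- libraries were above WT, by 1.58-fold and 1.62-fold, on 93, 106 and 18 UMIs, and the intervals overlap. Of the 6 of 9 genes that could be counted in these cells Tlr4 was the 1 counted as higher and 0 were lower, where 20.8% of all genes were higher and 3.23% were lower. Granulocyte-like cells are themselves a larger part of the Aoah-/- libraries, with 830, 638 and 218 cells. Endothelial-like cells followed at 27.3, 20.4 and 18.9 CPM, then peritoneal macrophage-like cells at 23.4, 14.4 and 20.1 CPM. Pericyte-like cells had 2 to 4 UMIs in each library, and macrophage-like cells stood at 10.5, 12.1 and 14.4 CPM. From endothelial- to macrophage-like cells, the ranges of neighbours in this order overlapped. In the deeper macrophage cluster Tlr4 stood at 11.9, 12.4 and 18.0 CPM, 0.664-fold and 0.691-fold of WT, so that WT was the highest there too.

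Tubular epithelium carried little Tlr4. PTEC-like cells, named for proximal tubule genes such as Miox and Kap, held 6, 8 and 8 UMIs in 8086, 5084 and 9388 cells, or 0.111, 0.164 and 0.109 CPM (0.0406 to 0.241, 0.0709 to 0.323 and 0.0472 to 0.215). T lymphocyte-like cells, taken as a class that should hold mostly free RNA of this gene, stood at 0.483, 0.131 and 0 CPM (0.0997 to 1.41, 0.00333 to 0.733 and 0 to 0.819). After thinning, 0.0163%, 0.0590% and 0.0264% of PTEC-like cells and 0.0511%, 0% and 0% of T lymphocyte-like cells held a Tlr4 UMI. The intervals of the levels of these classes overlapped in each library. Injured tubule-like cells stood higher, at 3.75, 3.01 and 3.75 CPM on 33, 37 and 25 UMIs.

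**Figure D2:**
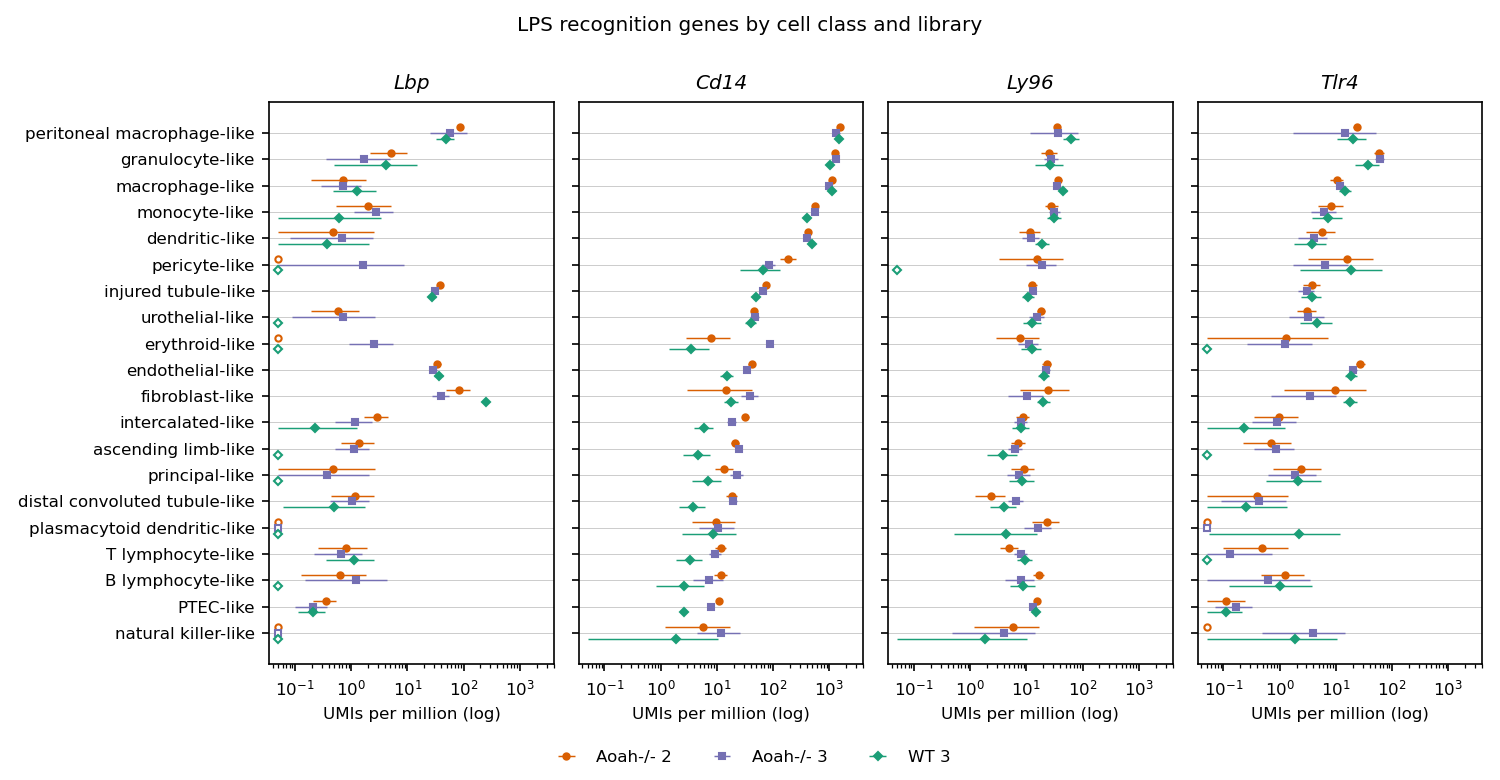
Levels of Lbp, Cd14, Ly96 and Tlr4 in UMIs per 1000000 on a log axis, by cell class (rows, in the order of Cd14) and library (circles for Aoah-/- mouse 2, squares for Aoah-/- mouse 3, diamonds for WT). Bars are exact Poisson 95% intervals and open symbols at the left edge are libraries at 0. Cd14 spans from 1535 CPM in peritoneal macrophage-like cells to 1.85 CPM in natural killer-like cells, and Tlr4 is at the lower end in PTEC-like cells.

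Ly96 was found in every class. Peritoneal macrophage-like cells stood at 35.3, 36.1 and 63.4 CPM, on 317, 5 and 41 UMIs. Macrophage-like cells stood at 36.9, 34.6 and 45.7 CPM, monocyte-like cells at 28.0, 31.3 and 31.5 CPM, granulocyte-like cells at 25.7, 27.8 and 26.8 CPM and endothelial-like cells at 23.0, 22.1 and 20.3 CPM. PTEC-like cells reached 15.7, 13.3 and 14.98 CPM (14.6 to 16.8, 12.3 to 14.3 and 14.1 to 15.9), above the 4.99, 7.89 and 9.55 CPM of T lymphocyte-like cells (3.39 to 7.09, 6.02 to 10.2 and 6.91 to 12.9) in each library. They held 39.1%, 34.8% and 57.5% of the Ly96 UMIs of kept cells, close to their 41.1%, 37.4% and 58.7% of all UMIs of kept cells. B lymphocyte-like cells stood at 16.6, 7.95 and 8.74 CPM, above PTEC-like cells in mouse 2 and below them in mouse 3 and WT. PTEC-like cells thus held Ly96 UMIs with hardly any of Tlr4. The part of free RNA in their Ly96 level was not tested.

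UMIs of Tlr4, Ly96 and Cd14 in the same cell were rare at this depth. In the deeper macrophage cluster 12 of 815, 22 of 1583 and 14 of 620 cells held all 3, or 1.47%, 1.39% and 2.26%. In peritoneal macrophage-like cells these were 44 of 1402, 1 of 28 and 7 of 78 cells. Some epithelial cells also held all 3: 1 of 811, 4 of 1454 and 4 of 507 injured tubule-like cells. Among urothelial-like cells there were 3 of 523, 0 of 368 and 3 of 170. Median depths were 9622, 5328.5 and 11416 UMIs in the former and 15018, 4132 and 11926.5 UMIs in the latter. In PTEC-like cells there were 0 in each library, and a count of 0, taken as at most 3 cells, allows a share with UMIs of all 3 genes of up to 0.0371%, 0.0590% and 0.0320%. This limits cells with such UMIs at this depth and not cells that express the genes. Of the macrophage-like cells with a Tlr4 UMI, 80.7%, 85.5% and 86.4% also held a Cd14 UMI. In the deeper macrophage cluster 83.6%, 87.0% and 91.1% of such cells did, against 80.9%, 75.2% and 87.1% of all its cells. Of endothelial-like cells with a Tlr4 UMI 8.26%, 16.3% and 6.67% did, against 9.08%, 10.1% and 4.91% of all of them. Whether the 2 genes go together within a class was not tested.

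PTEC-like cells held little Cd14, but more in both Aoah-/- libraries than in WT. They stood at 10.9, 7.78 and 2.58 CPM (10.1 to 11.8, 7.01 to 8.60 and 2.23 to 2.98). Their log2 ratio was 1.86 ± 0.35. T lymphocyte-like cells stood at nearly the same levels, 11.8, 9.33 and 3.33 CPM (9.22 to 14.8, 7.29 to 11.8 and 1.86 to 5.49), with a log2 ratio of 1.66 ± 0.24. B lymphocyte-like cells were at 11.6, 7.34 and 2.57 CPM. After thinning, 1.51%, 1.49% and 0.225% of PTEC-like cells and 1.38%, 0.628% and 0.2498% of T lymphocyte-like cells held a Cd14 UMI, and without thinning 6.78%, 6.33% and 1.92% and 3.44%, 2.85% and 1.02%, at median depths of 2986.5, 5682 and 4811.5 UMIs and 2515, 3034 and 2951 UMIs. The Cd14 level of PTEC-like cells lay below that of T lymphocyte-like cells in each library, with overlapping intervals. Their thinned share lay above that of T lymphocyte-like cells in both Aoah-/- libraries and below it in WT, and since this goes against the levels no order is read from it.

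Markers of myeloid cells moved with it. C1qa, C1qb, C1qc and Lyz2 summed to 92.9, 80.3 and 40.3 CPM in PTEC-like cells, and the granulocyte genes S100a8 and S100a9 to 18.8, 24.3 and 3.57 CPM. Their part in the Cd14 difference was not tested. For each 100 UMIs of these macrophage genes, PTEC-like cells held 11.7, 9.69 and 6.41 UMIs of Cd14, T lymphocyte-like cells 5.74, 5.42 and 5.30, macrophage-like cells 6.46, 5.44 and 6.63 and granulocyte-like cells 111, 92.6 and 125. In the 3910, 2074 and 6757 PTEC-like cells without a UMI of any of 11 immune genes, Cd14 stood at 10.8, 5.32 and 2.31 CPM, in the same order of libraries. Such cells can still hold free Cd14 RNA, so this order does not tell its source.

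Injured tubule- and urothelial-like cells held more Cd14 for their macrophage genes than macrophage-like cells did. Injured tubule-like cells held 45.8, 31.8 and 145 UMIs of Cd14 for each 100 of the macrophage genes and urothelial-like cells 26.7, 14.2 and 72.1. This was not particular to them. Endothelial-like cells held 18.7, 16.0 and 11.2, above urothelial-like cells in mouse 3. Pericyte-like cells held 8.43, 9.27 and 43.8, and principal-like cells 10.5, 4.56 and 25.5, below macrophage-like cells in mouse 3. In injured tubule-like cells without an immune UMI Cd14 was at 78.3, 58.3 and 46.7 CPM. The ratio in granulocyte-like cells, 111, 92.6 and 125, was above that of injured tubule-like cells in both Aoah-/- libraries and below it in WT. S100a8 and S100a9 stood at 41.5, 95.6 and 2.55 CPM in injured tubule-like cells. The part of free RNA was not tested. The log2 ratio of Cd14 between genotypes was 0.48 ± 0.12 in injured tubule-like cells and 0.22 ± 0.04 in urothelial-like cells.

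**Figure D3:**
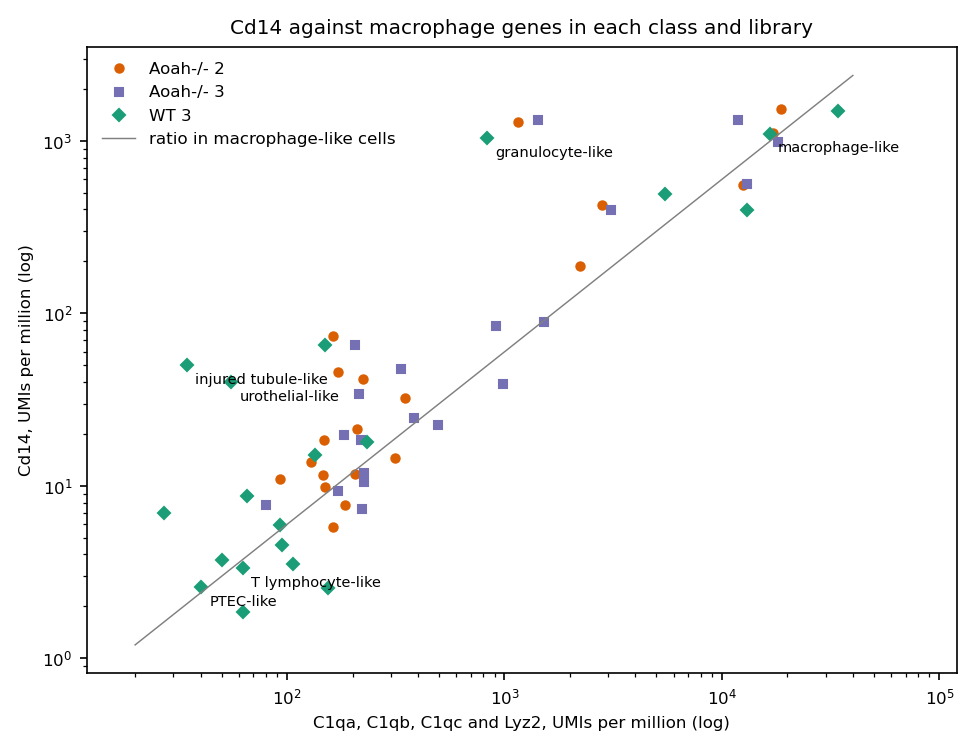
Cd14 level against the summed level of C1qa, C1qb, C1qc and Lyz2, both in UMIs per 1000000 on log axes, with 1 point for each of the 20 classes in each library. The grey line is the ratio in macrophage-like cells, and labels name WT points. T lymphocyte-like cells lie near the line, and injured tubule-, urothelial- and granulocyte-like cells lie above it (145, 72.1 and 125 UMIs of Cd14 per 100 UMIs of these genes in WT).

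Across classes, Cd14 could be counted in 18 of 20 and was higher in both Aoah-/- libraries in 14 and lower in both in 1. In 9 classes both were at least 1.5-fold above WT: B and T lymphocyte-, PTEC-, ascending limb-, distal convoluted tubule-, principal-, intercalated-, endothelial- and erythroid-like cells, and in 0 at least 1.5-fold below. Erythroid-like cells held 6, 210 and 7 UMIs of Cd14, so they reached 30 UMIs only through mouse 3. The WT level of B lymphocyte-like cells rests on 5 UMIs. Over all genes and the 20 classes, 8.34% of gene and class pairs were higher and 3.34% were lower by this count. No such share was taken for the counts of 14 and 1, which use no fold bound. None of these 9 classes is myeloid, and in each of them the Cd14 level of every library was at most 88.5 CPM. That value came from erythroid-like cells of Aoah-/- mouse 3, in which C1qa, C1qb, C1qc and Lyz2 summed to 1526 CPM, against 185 and 106 CPM in the other libraries. In endothelial-like cells these genes summed to 224, 214 and 134 CPM, and S100a8 and S100a9 to 72.5, 245 and 5.01 CPM. Their part in the Cd14 difference was not tested. Endothelial-like cells were at 41.8, 34.2 and 15.03 CPM (36.2 to 48.1, 29.9 to 38.9 and 11.2 to 19.8), and the 489, 600 and 482 of them without an immune UMI at 25.4, 22.9 and 8.74 CPM. Cd14 was the 1 of 8 members counted as higher there and 0 were lower, against 6.92% and 1.78% of all genes. In T lymphocyte-like cells Cd14 was also the 1 of 6 counted as higher and 0 were lower, against 4.53% and 2.09%.

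**Figure D4:**
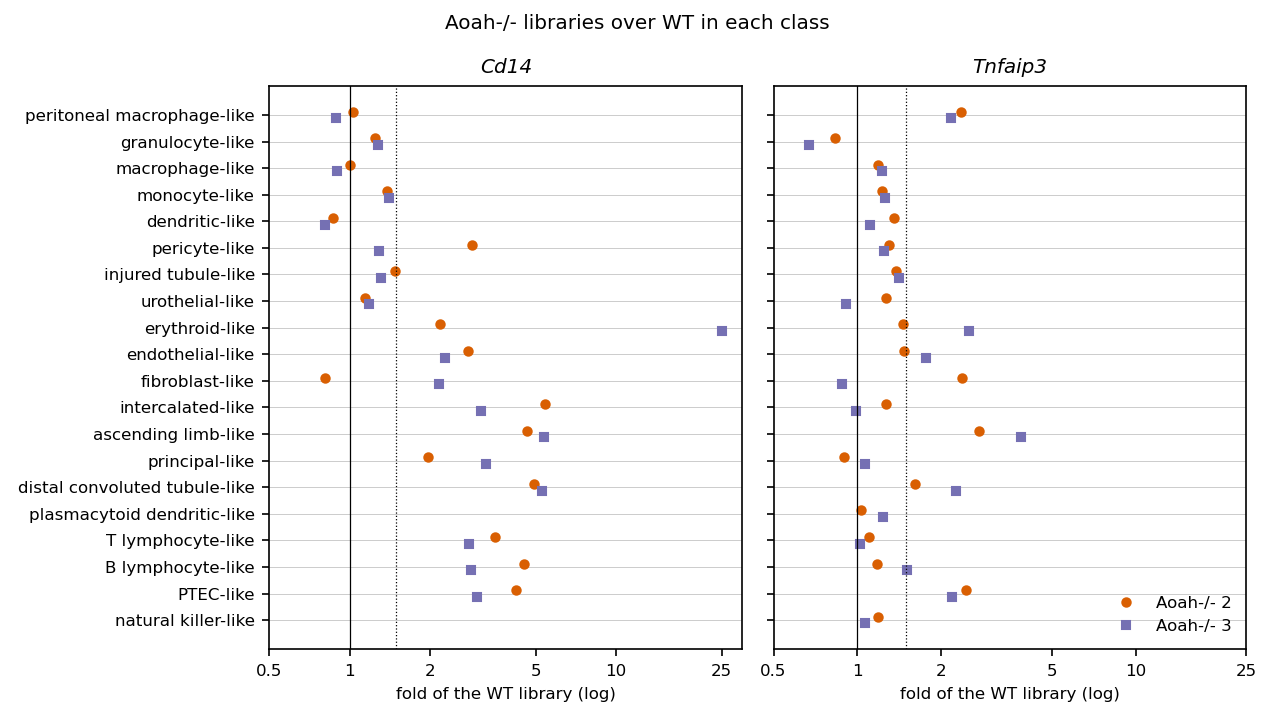
Cd14 and Tnfaip3 in each Aoah-/- library as fold of the WT library on a log axis, by class, with circles for mouse 2 and squares for mouse 3. The dotted line marks 1.5-fold and classes with fewer than 30 UMIs are left empty. Cd14 lies near 1 in macrophage-like cells (1.00-fold and 0.899-fold) and beyond 1.5-fold in PTEC-like cells (4.22-fold and 3.01-fold).

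Of the adaptors, Myd88 was highest in granulocyte-like cells, at 122, 108 and 117 CPM, followed without overlap by monocyte-like cells at 85.5, 86.9 and 64.2 CPM. By the mean of the 3 libraries it was lowest in PTEC-like cells, at 8.35, 7.61 and 5.88 CPM. Erythroid-like cells were lower in mouse 2 (6.44 CPM) and WT (4.53 CPM), and peritoneal macrophage-like cells in mouse 3 (7.22 CPM on 1 UMI). Ticam1, the gene of TRIF, was by the mean of the 3 libraries highest in macrophage-like cells, at 22.6, 15.7 and 23.5 CPM. By that mean it was lowest in granulocyte-like cells, at 6.27, 2.84 and 4.12 CPM on 10, 5 and 2 UMIs. In mouse 3 dendritic-like cells were above macrophage-like cells, at 18.0 CPM. In WT urothelial-like cells were below granulocyte-like cells, at 2.57 CPM. Ticam1 stood at 10.7, 10.9 and 9.91 CPM in PTEC-like cells. It was counted as higher in 2 of the 15 classes with enough UMIs and as lower in 0. Over all gene and class pairs 8.34% were higher and 3.34% lower. The 2 were B lymphocyte-like cells (8.51, 9.79 and 5.66 CPM) and urothelial-like cells (5.31, 5.41 and 2.57 CPM). Their WT levels rest on 11 and 6 UMIs, and in both classes the WT interval overlaps those of the Aoah-/- libraries. Ticam2, the gene of TRAM, was found in monocyte-like cells at 17.7, 12.1 and 18.2 CPM, dendritic-like cells at 13.1, 13.2 and 12.6 CPM and macrophage-like cells at 8.03, 8.08 and 7.12 CPM. In PTEC-like cells it had 5, 1 and 6 UMIs. Granulocyte-like cells, first in Tlr4 and Myd88, held 2, 2 and 0 UMIs of Ticam2.

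The inhibitors were spread differently. Irak3, apart from its level in WT fibroblast-like cells, was highest in granulocyte-like cells at 47.1, 42.5 and 53.5 CPM, and monocyte- and B lymphocyte-like cells stood at 31.9, 30.5 and 35.7 CPM and at 31.5, 34.9 and 24.7 CPM. Tnfaip3 was highest in T lymphocyte-like cells at 715, 666 and 649.8 CPM, then in granulocyte-like cells at 543, 438 and 655 CPM and natural killer-like cells at 594, 537 and 502 CPM. The ranges of neighbours in this order overlap.

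Tnfaip3 was higher in both Aoah-/- libraries in 15 of 20 classes and lower in both in 1, the granulocyte-like cells. These counts use no fold bound, and no share over all genes was taken for them. By the 1.5-fold count 8.34% of all gene and class pairs were higher and 3.34% lower. By that count Tnfaip3 was lower in 0 classes and higher in 4. PTEC-like cells stood at 8.07, 7.22 and 3.29 CPM (7.34 to 8.87, 6.49 to 8.02 and 2.89 to 3.74), with 1.22 ± 0.11 on the log2 scale, and those without an immune UMI stood at 8.02, 5.76 and 2.94 CPM. Peritoneal macrophage-like cells stood at 600.3, 556 and 255 CPM, of which mouse 3 rests on 28 cells and WT on 78. Distal convoluted tubule-like cells stood at 14.8, 20.8 and 9.17 CPM and ascending limb-like cells at 19.7, 27.9 and 7.18 CPM. PTEC-like cells were the lowest of all classes for Tnfaip3, and the part of free RNA in this difference was not tested.

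**Figure D5:**
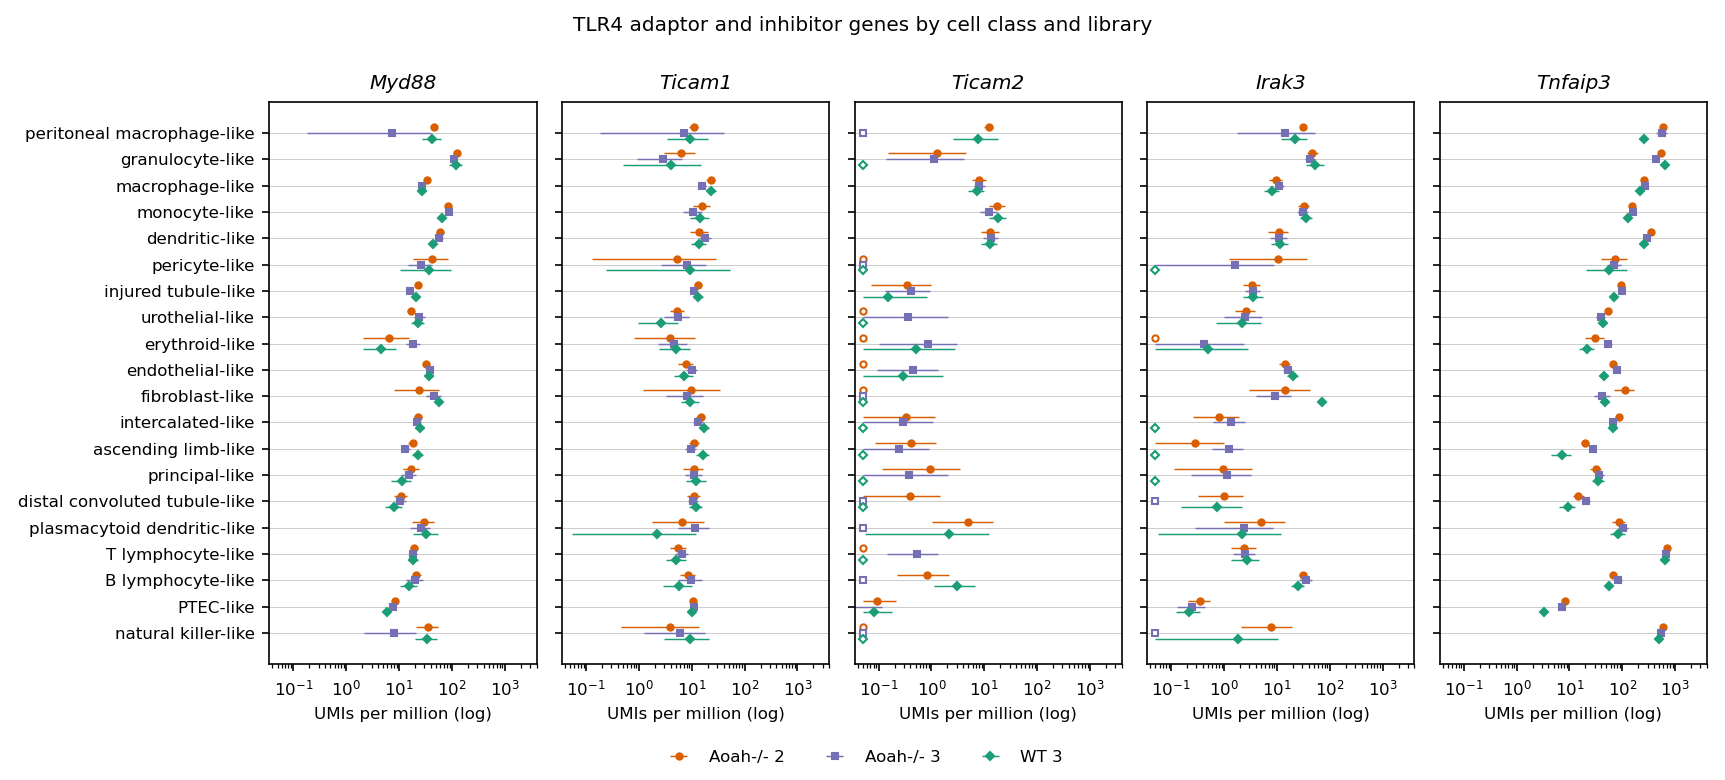
Levels of the adaptor genes Myd88, Ticam1 and Ticam2 and the inhibitor genes Irak3 and Tnfaip3 in UMIs per 1000000 on a log axis, by class and library, with exact Poisson 95% intervals and open symbols for libraries at 0. Ticam2 is mostly at or near 0 outside monocyte-, dendritic-, macrophage- and peritoneal macrophage-like cells, and Tnfaip3 ranges from 715 CPM in T lymphocyte-like cells to 3.29 CPM in PTEC-like cells.

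In macrophage-like cells, 0 of the 8 genes with enough UMIs were higher and 0 were lower, where 10.1% of all 11626 genes tested were higher and 1.01% were lower. In the deeper macrophage cluster alone the counts were also 0 and 0 of 8, against 8.62% and 1.17%. The median log2 ratio of the 8 genes was 0.03 in the class, where it was 0.19 over all genes. In PTEC-like cells 2 of 7 (Cd14 and Tnfaip3) were higher and 0 were lower, against 10.1% and 2.64% of 13697 genes. Tlr4 and Ticam2 had too few UMIs to be counted there.

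Monocyte- and injured tubule-like cells gave no count in either direction. In the former 0 of 8 genes were higher and 0 lower, against 5.41% and 2.96% of all genes, although Cd14 had a log2 ratio of 0.48 ± 0.01 and Myd88 one of 0.43 ± 0.02. In injured tubule-like cells 0 of 8 were higher and 0 lower, against 6.31% and 2.58%. In ascending limb-like cells 3 of 5 (Cd14, Ly96 and Tnfaip3) were higher and 0 lower, against 8.78% and 4.19%, with C1qa, C1qb, C1qc and Lyz2 at 210, 385 and 94.6 CPM in the same cells. With each library clustered alone the log2 ratio of Cd14 in these cells was -0.18 ± 0.39, so its direction there depended on how the class was drawn.

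Of the 56 other genes of LPS handling and TLR4 signalling, 6 of the 55 with enough UMIs were higher and 4 lower in macrophage-like cells, where 10.1% and 1.01% of all genes were. The count of higher genes is thus near the share over all genes. The higher ones included Msr1 (a scavenger receptor, 61.7, 63.9 and 27.6 CPM) and Saa3 (an acute-phase gene, 55.5, 26.9 and 3.23 CPM). The rest were the chemokine gene Cxcl1 (207, 148 and 86.5 CPM), the inhibitor Tollip (23.4, 18.5 and 9.49 CPM), the kinase gene Ikbke and the kinase partner Tab1. The lower ones were Aoah itself, the chemokine genes Ccl3 (1794, 1693 and 2916 CPM) and Ccl4 (4523, 4325 and 7140 CPM) and Ifnb1, the last on 34 UMIs in all. Among the 13 induced target genes with enough UMIs the median log2 ratio was -0.27 in macrophage-like cells, and -0.50 in the deeper cluster alone.

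In PTEC-like cells 17 of 52 of these genes were higher and 1, Aoah, was lower, at 13.3, 12.4 and 26.6 CPM, where 10.1% of all genes were higher and 2.64% lower. Of the 11 induced targets with enough UMIs 8 were higher and 0 lower, with a median log2 ratio of 1.09, where it was 0.00 over all genes. They include Cxcl1 (25.1, 22.1 and 10.6 CPM), Cxcl2 (32.3, 16.8 and 4.24 CPM), Il1b (14.4, 24.3 and 7.05 CPM), Ccl4 (13.1, 25.3 and 7.61 CPM), Ccl3 (6.51, 9.79 and 3.99 CPM) and Icam1 (7.67, 6.77 and 4.25 CPM). Irf7, a factor of interferon responses, stood at 11.2, 9.93 and 2.41 CPM, Tnip1, a partner of A20, at 6.86, 7.82 and 3.91 CPM and Itgb2, a leukocyte integrin gene, at 4.72, 2.20 and 1.16 CPM. In T lymphocyte-like cells 4 of 12 induced targets (Il1b, Il6, Cxcl2 and Ccl2) were higher and 0 lower, against 4.53% and 2.09% of all genes. In the 13 genes of the MyD88 arm, 0 were higher and 0 lower in PTEC-like cells, and 1 was higher, Tab1, in macrophage-like cells. The part of free RNA from leukocytes in the PTEC-like counts was not tested.

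Likeness of pattern was measured over 51 points, the 17 classes with at least 50 cells in each library, as Pearson's r of log2(CPM + 1) among 10641 genes. It is a description, since points of the same library share its depth and free RNA. The genes most like Cd14 were Tgfbi (r = 0.95), Cxcl2 (r = 0.94) and Tlr2 (r = 0.94), and most like Tlr4 were Marcksl1 (r = 0.87), Sdcbp (r = 0.86) and Tnfrsf23 (r = 0.85). Ly96 was nearest to Aldh3b1 (r = 0.80), Plin2 (r = 0.79) and Vps26a (r = 0.77), and Lbp to Fbn1, Rnd1 and Adamts5 (r = 0.89 each). Between members, r was 0.77 for Tlr4 with Cd14, 0.63 for Tlr4 with Ly96 and -0.04 for Tlr4 with Ticam1.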

How the data were processed

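Kidney cells of 2 Aoah-/- mice and 1 WT mouse were profiled with the Chromium 3' kit, and per the labels the kidneys were perfused, digested with collagenase and freed of erythrocytes. The authors deposited, for each library, raw UMI counts of 27998 genes per barcode. The submitters' processing notes name Cell Ranger 3.1.0, STAR, Seurat 4.2.0 and the mm10 build, while the header of the deposited matrices names Cell Ranger 6.1.2. Totals are 158551992 to 167222984 UMIs per library. The 9 genes and all gene lists were chosen with earlier results of these data known.

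Barcodes were kept if they held 200 genes or more and no more than 50% of their UMIs were mitochondrial. Counts were scaled to 10000 per cell, log-transformed and clustered (scanpy 1.11.5, igraph 0.11.9, 2000 variable genes, 50 principal components, 15 neighbours, resolution 1) without the 9 genes, the 56 pathway genes and MHC class II genes, and with no correction between libraries. A cluster was named where its 5 best markers reached a mean log2 fold of 2 over the median cluster, at least 3 were at 2-fold and its 10 leading genes held a marker of that class and not more of another. Clusters in which PTEC markers reached 0.5 of that strength stayed unnamed, as did those no marker led, so class names were rebuilt here. Doublets were kept, since no caller threshold held in every library.

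UMIs were summed per class and library, with exact Poisson or Clopper-Pearson 95% intervals (scipy 1.17.1). A library at 0 was given a floor of 3 counts in a ratio. With 1 WT library the spread among WT mice could not be measured, so no test across mice was run, and cells were not treated as replicates. Shares of cells used each cell thinned to 1000 UMIs, and cells with fewer were left out (662, 0 and 863 of the macrophage-like and 1947, 0 and 1819 of the PTEC-like cells). Named genes are the 9 members, pathway genes counted in macrophage- or PTEC-like cells (at most 10 per class by UMIs) and the 3 genes most like each of Tlr4, Cd14, Ly96 and Lbp with at least 20 CPM in a class. The count rule was run on simulated macrophage- and PTEC-like counts that held counting error only. They held no variation between mice and no free RNA, so false counts from those sources were not measured. Alternatives are given in the closing section. The weighting of WT levels by class shares, the deeper macrophage cluster alone and the removal of peritoneal macrophage-like cells were added after seeing the data.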

Additional observations from a re-analysis of the deposited data

Results flagged for a closer look

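Tlr4 and Ly96 were counted as higher in some cell classes and as lower in others. Tlr4 was higher in 1 and lower in 1 of 9 classes with enough UMIs, and Ly96 was higher in 2 and lower in 2 of 18. Over all gene and class pairs 8.34% were higher and 3.34% lower. Only classes where both knockout libraries lay at least 1.5-fold on the same side of WT are listed, so their agreement follows from that choice. Tlr4 had a log2 ratio of 0.68 in granulocyte-like cells and of -1.46 in fibroblast-like cells, the latter on 2, 3 and 50 UMIs. Ly96 had a log2 ratio of 0.79 in ascending limb-like cells (52, 51 and 12 UMIs) and 2.18 in plasmacytoid dendritic-like cells (14, 14 and 2 UMIs), but -0.69 in dendritic-like cells (25, 36 and 52 UMIs) and -0.83 in peritoneal macrophage-like cells (317, 5 and 41 UMIs). In each of these classes the Poisson interval of WT overlaps that of at least 1 Aoah-/- library. The differences between classes were not tested, and several rest on few UMIs in 1 library.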

How the results depend on the processing

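The limits are 1 WT mouse, rebuilt class names and free RNA in droplets. No paired analysis was possible because the groups share only replicate number 3. Over whole libraries, 3 of the 9 genes were higher, and at 2-fold 0 were. Leaving out an Aoah-/- mouse gave 3 to 4 higher and 0 to 1 lower (Lbp, without mouse 2), and leaving out peritoneal macrophage-like cells gave 1 lower (Lbp). Limits of 20% mitochondrial UMIs or all barcodes added Ticam2, for 4 higher. In PTEC-like cells 2 were higher, 4 were (Lbp and Irak3 added) when the 10% of cells scored highest by Scrublet were dropped, and 2 to 4 were when an Aoah-/- mouse was left out, 4 of them without mouse 3. In macrophage-like cells 0 were higher, but 1 was (Irak3) with the mean of per-cell levels. There 0 were lower, but 1 was (Lbp) with each library clustered alone. Without 1 Aoah-/- mouse 0 to 1 were lower there (Ticam1, without mouse 2). With the main classes Lbp held 4, 7 and 6 UMIs in macrophage-like cells, too few to be counted. In PTEC-like cells Lbp held 19, 10 and 15 UMIs and Irak3 19, 12 and 16. The cause of these changes was not tested.

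Of 126 alternative values of the 11 log2 ratios past 1.5-fold, 125 kept their sign. Of those 125, 102 stayed within the SD between the Aoah-/- mice and 23 moved by more. The 1 value that changed sign was Cd14 in ascending limb-like cells with each library clustered alone, at -0.18 in place of 2.33. The 11 ratios were picked with both Aoah-/- mice past 1.5-fold on the same side, so leaving out either mouse could not change their sign. Of 429 alternative values of the 38 other ratios, 391 kept their sign and 70 moved by more than that SD. The ratios of both sets cover whole libraries and PTEC-, macrophage-, endothelial-, granulocyte-, T lymphocyte- and ascending limb-like cells, and not fibroblast-like cells. At this depth Tlr4 and Ticam2 could not be compared in PTEC-like cells.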
